A study of Mus musculus with 7 samples.

Results

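The guidance genes described here are the ephrins and their Eph receptors, the Slits and their Robo receptors, and the netrins and netrin-Gs with the receptors Dcc, neogenin and Unc5. Genes were taken by name: every row of the count table whose symbol belongs to the Epha, Ephb, Efna, Efnb, Slit, Robo, Ntn, Ntng or Unc5 families, with Dcc and Neo1. These were 40 of the 49315 genes listed, of which 16 encode ligands and 24 encode receptors. They were measured by bulk RNA sequencing of mouse oligodendroglia from brain in 4 libraries labelled Sox9-tg, whose cells overexpress the transcription factor Sox9, and 3 control libraries titled Sox9_ctrl, of genotype Sox9-wt. The series' title places the cells among early postnatal NG2 glia, the dividing precursors of oligodendrocytes, and asks which genes respond to Sox9. The sources used here do not give age in days, the promoter that drives the transgene, how the cells were isolated, or which animal or culture each library came from. Labels call the libraries biological replicates. Since nothing says that these were separate animals or cultures, the p-values measure only the spread between these libraries, part of which may be technical. Libraries held 15768472 to 20815459 gene counts in the Sox9-tg group and 17275678 to 30507326 in the control group.

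Guidance genes encode cues and receptors that steer migrating cells and growing axons. Ephrins are bound to the cell surface, the A class by a lipid anchor and the B class by a membrane span, and they activate Eph receptor tyrosine kinases on neighbouring cells while also signalling back into their own cell. Slits are secreted proteins that usually repel cells carrying Robo receptors, whereas netrin-1 attracts cells through Dcc and repels them where Unc5 receptors take part. Oligodendrocyte precursors use netrin-1 and Dcc, among other cues, as they spread through the developing central nervous system.

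As a check of the labels, Sox9 itself stood at 2207, 2741, 3597 and 3115 CPM, a gene's count relative to the library's scaled total, in Sox9-tg libraries 1 to 4 and at 239, 353 and 293 CPM in control libraries 1 to 3. The groups did not overlap, and Sox9 was 9.88-fold higher in Sox9-tg libraries (SE 0.24 on the log2 scale, adjusted p = 0.000181 by edgeR's quasi-likelihood test). All 10 listed marker genes of NG2 glia were detected and rose, with summed levels of 7075 to 11119 CPM in Sox9-tg and 2071 to 2628 CPM in control libraries. Genes of other cell types were present as well. The summed level of 12 neuronal markers was 2424, 916, 1501 and 1479 CPM in Sox9-tg libraries 1 to 4 and 3882, 2097 and 2962 CPM in control libraries 1 to 3, and 8 of these 12 fell with none higher. Of 10 cell-cycle genes, 9 fell, and their summed level was 602 to 1068 CPM in Sox9-tg and 1518 to 2336 CPM in control libraries. Of 9 tested oligodendrocyte markers 7 rose, with summed levels of 841 to 5264 CPM in Sox9-tg and 148 to 297 CPM in control libraries. Of 10 radial glia markers 5 fell, with summed levels of 2199.9 to 3070.3 CPM in Sox9-tg and 3202 to 4141 CPM in control libraries. The 10 astrocyte markers, which include Sox9, gave 4 falls and 1 rise, that of Sox9 itself, with a median log2 fold change of -0.64. Their summed levels were 3843 to 5682 CPM in Sox9-tg and 2657 to 4732 CPM in control libraries. Sox9 alone gave 2207 to 3597 CPM of this in Sox9-tg and 239 to 353 CPM in control libraries. The higher sum in Sox9-tg libraries therefore does not show a rise of the other astrocyte markers. Of 8 tested mural and meningeal markers 1 rose, and the 10 listed summed to 27.7 to 59.2 CPM in Sox9-tg and 39.0 to 128 CPM in control libraries. This sum and those of the endothelial, microglial and ependymal markers were highest in library 2 of each group. None of the 6 endothelial, 10 microglial and 5 ependymal markers tested passed. In bulk samples, fewer cells of a type and less RNA per cell cannot be told apart.

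Most guidance genes that changed fell in Sox9-tg libraries. Of the 40 genes, 38 passed the filter on low counts and were tested, and Robo4 and Ntn5 were not. Among those tested, 14 fell and 3 rose at an adjusted p under 0.05 by edgeR's quasi-likelihood test. That is 36.8% lower and 7.89% higher, beside 5.86% lower and 7.69% higher among all 16616 genes tested. Thus the share that rose was near that of all genes. The guidance genes were chosen with earlier results of these data known, so these shares were not tested. Robo3 and Epha6, both among the 14 that fell, passed the filter only with their counts in control libraries, where they were higher. Their place in these shares therefore depends on the control group. The genes that fell were the receptor genes Robo1, Robo2, Robo3, Unc5b, Unc5d, Epha3, Epha5, Epha6, Epha7, Epha8 and Ephb4 and the ligand genes Slit1, Efnb1 and Ntng1. Those that rose were the receptor genes Unc5c and Ephb6 and the ligand gene Ntn1. Receptors thus gave 11 lower and 2 higher of 23 tested, and ligands 3 lower and 1 higher of 15 tested. The median log2 fold change (Sox9-tg minus control) was -0.72 over tested receptors and -0.48 over tested ligands, beside -0.01 over all genes tested. The difference between ligands and receptors was not tested.

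The separation of the groups was also counted, from the same libraries and levels as the calls, so it gives no separate support. All Sox9-tg libraries lay below all control libraries for 19 of the 38 genes, or 50%, beside 11.5% of all genes tested, and above them for 4, or 10.5%, beside 13.1%. Robo3 and Epha6, which passed the filter only with their control counts, are among the 19. Of the 17 calls, 8 held in each of the 16 alternative settings tried, those of Slit1, Robo2, Robo3, Unc5b, Unc5c, Unc5d, Epha5 and Ntng1. The other 9 were each lost in at least 1 fit that left out a library. The number called lower was 18, 11, 7 and 7 without Sox9-tg libraries 1 to 4, and 8, 14 and 8 without control libraries 1 to 3. The number called higher was 4 without Sox9-tg library 1, 2 without control library 2 and 1 without any of the others. Fits with fewer libraries have less power.

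**Figure D1:**
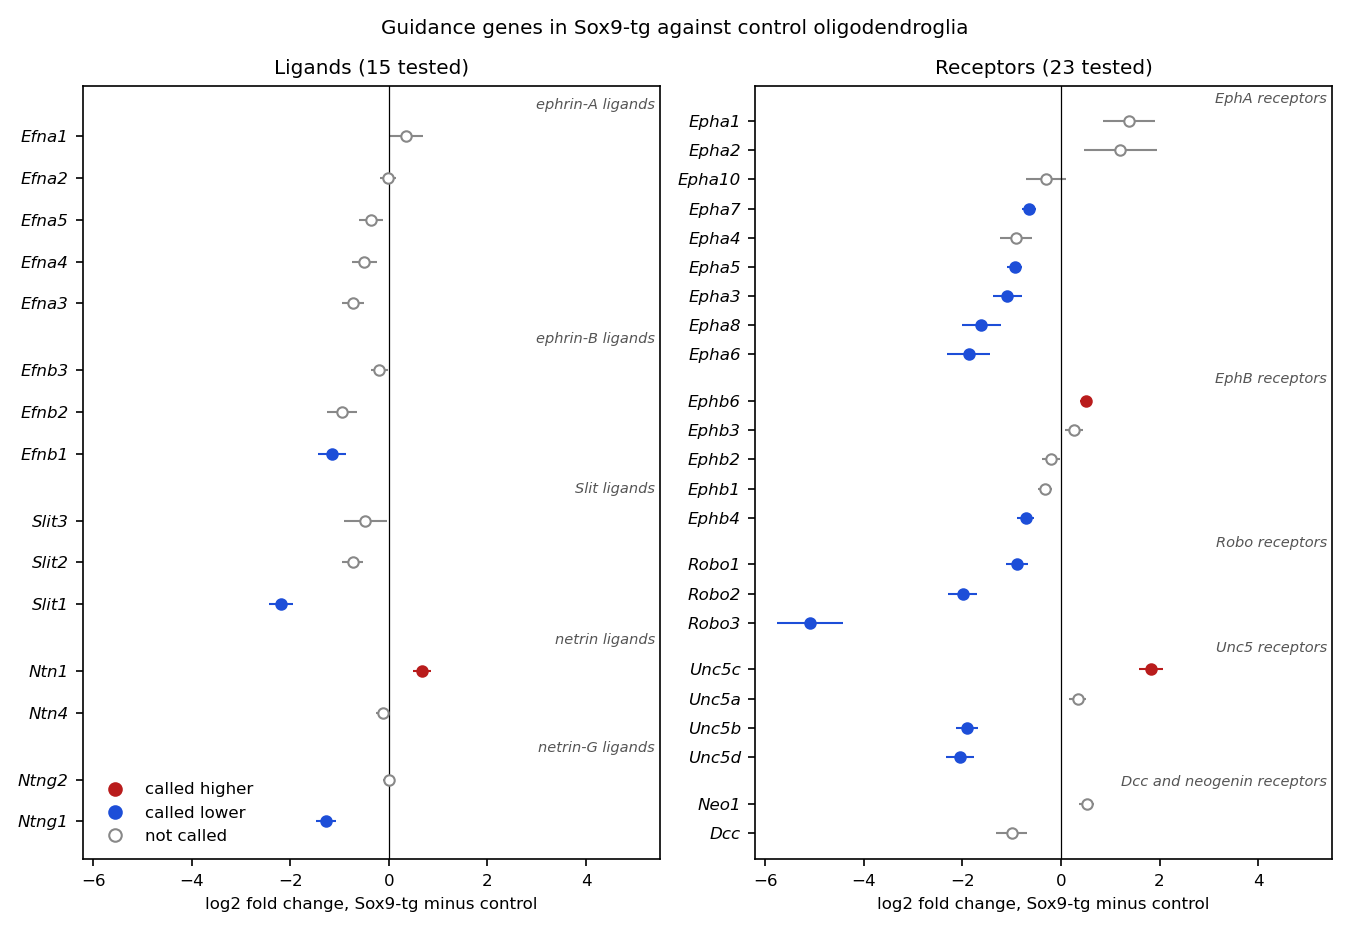
Log2 fold change (x axis, Sox9-tg minus control, 4 and 3 libraries) of the 15 tested ligand genes (left) and 23 tested receptor genes (right), ordered within families. Points are edgeR estimates with bars of 1 SE, filled where the adjusted p is under 0.05. Robo3 lies farthest left at -5.09, and Unc5c is the highest called gene at 1.83.

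Within each group, some libraries were more often at the ends of the range than others. Among the 14 genes that fell, Sox9-tg library 1 was the highest Sox9-tg library for 10 and Sox9-tg library 2 the lowest for 8. Control library 1 was the highest control library for 7 and control library 2 the lowest for 10. Epha8 and Unc5b, in contrast, were highest in library 2 of both groups. The summed neuronal and cell-cycle markers were also highest in library 1 and lowest in library 2 of each group, with 1068 and 602 CPM for the cell-cycle genes in Sox9-tg libraries 1 and 2 and 2336 and 1518 CPM in control libraries 1 and 2. The summed NG2 glia and oligodendrocyte markers ran the other way, lowest in library 1 and highest in library 2 of each group. NG2 glia markers summed to 7075 and 11119 CPM in Sox9-tg libraries 1 and 2 and to 2071 and 2628 CPM in control libraries 1 and 2, and oligodendrocyte markers to 841 and 5264 CPM and to 148 and 297 CPM in the same libraries. Sox9 itself was lowest in library 1 of each group. The part of these marker levels and of Sox9 in the falls was not tested.

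The Slit ligands fell mainly through Slit1 (ENSMUSG00000025020, GRCm38 chromosome 19, 41600257 to 41743665, minus strand), a secreted repellent of the forebrain. Slit1 stood at 27.2, 12.4, 17.2 and 17.96 CPM in Sox9-tg libraries 1 to 4, against 101, 72.6 and 83.2 CPM in control libraries 1 to 3. Every Sox9-tg library was far below every control library, a 4.57-fold fall (log2 fold change -2.19, SE 0.24, adjusted p = 0.000947 by edgeR), the smallest adjusted p among the guidance genes. Slit2, a ligand of the same receptors, had 19.5, 13.7, 9.85 and 12.2 CPM in Sox9-tg and 23.4, 24.5 and 21.0 CPM in control libraries. Its groups did not overlap, but it did not pass (log2 fold change -0.73, edgeR adjusted p = 0.0558). Without Sox9-tg library 1, the adjusted p of Slit2 was 0.00675, and limma-voom and DESeq2 with all libraries gave 0.0364 and 0.02. Slit3 overlapped between groups, at 1.48 to 4.24 CPM in Sox9-tg and 2.15 to 5.06 CPM in control libraries. Per kilobase of exon, Slit1 made up 80.7, 62.9, 82.1 and 78.8% of the summed Slit level in Sox9-tg libraries 1 to 4 and 90.3 to 91.2% in control libraries. The summed Slit level itself was 4.11 ± 1.09 RPKM (CPM per kilobase of merged exon) in Sox9-tg and 15.9 ± 2.67 RPKM in control libraries (SD, n = 4 and 3). The merged exons of Slit2 span 25433 bases in the annotation, against 5921 for Slit1 and 6067 for Slit3. Shorter Slit2 transcripts in use would place the share of Slit1 lower and the summed level higher.

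All 3 tested Robo receptors fell. Robo2 (ENSMUSG00000052516, chromosome 16, 73891839 to 74411825, minus strand), a repulsive Slit receptor, had 57.7, 27.6, 33.3 and 40.7 CPM in Sox9-tg libraries 1 to 4, against 190, 97.0 and 190 CPM in control libraries 1 to 3. The lowest control library, library 2, was still above the highest Sox9-tg library, library 1. The fall was 3.99-fold (log2 fold change -1.99, SE 0.30, edgeR adjusted p = 0.00336). Robo1 (ENSMUSG00000022883), the other broadly expressed Slit receptor, lies 846 kb from Robo2 on the same chromosome, at 72308306 to 73046095 on the plus strand. It had 103, 62.2, 78.2 and 86.5 CPM in Sox9-tg and 205, 117 and 139 CPM in control libraries, which also did not overlap (log2 fold change -0.90, SE 0.22, edgeR adjusted p = 0.0278). The call of Robo1 was lost without Sox9-tg library 2 (adjusted p = 0.0527), 3 (0.0864) or 4 (0.0705) and without control library 1 (0.113) or 3 (0.077), whereas that of Robo2 was kept in each case.

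Robo3 (ENSMUSG00000032128, chromosome 9, 37415669 to 37433246, minus strand), known for its role in axons that cross the midline, fell nearly to the floor of detection. It had 4, 0, 1 and 1 counts in Sox9-tg libraries 1 to 4, or 0.21, 0, 0.064 and 0.049 CPM, against 3.14, 2.08 and 3.53 CPM in control libraries 1 to 3. A total of 3 counts corresponds to 0.146 to 0.193 CPM in Sox9-tg libraries, so 3 of the 4 were under that floor. Summed over libraries, 6 counts in Sox9-tg stood against 227 in control, a ratio of 0.0278 per scaled count (exact 95% interval 0.0101 to 0.0614, for counting error only). The fitted log2 fold change was -5.09 (SE 0.67, edgeR adjusted p = 0.00191), and it was -6.14 without Sox9-tg library 1. Robo3 passed the filter on low counts only through its 54, 64 and 109 counts in control libraries 1 to 3. Its entry to the test thus depended on the group where it was high. Robo4, a receptor of blood vessels, ends 553 bases from the end of Robo3 on the opposite strand and was not tested. Its counts came largely from control library 2, at 0.26, 1.35, 0.45 and 0.098 CPM in Sox9-tg libraries 1 to 4 and 0.35, 6.76 and 0.19 CPM in control libraries 1 to 3. The summed level of 10 endothelial markers was also highest in library 2 of each group, with 35.9 CPM in Sox9-tg library 2 and 12.05 to 14.7 CPM in the other Sox9-tg libraries, against 150 CPM in control library 2 and 8.02 and 10.8 CPM in the other control libraries.

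Compared per kilobase of exon, the makeup of the Robo family differed between the groups. The summed Robo level was 5.65 to 9.70 RPKM in Sox9-tg and 14.4 to 24.1 RPKM in control libraries. Robo1 made up 64.1 to 69.7% of it in Sox9-tg and 41.7 to 51.5% in control libraries, and Robo2 made up 28.8 to 35.0% in Sox9-tg and 39.7 to 55.6% in control libraries. Neither range overlapped. These shares were not tested.

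**Figure D2:**
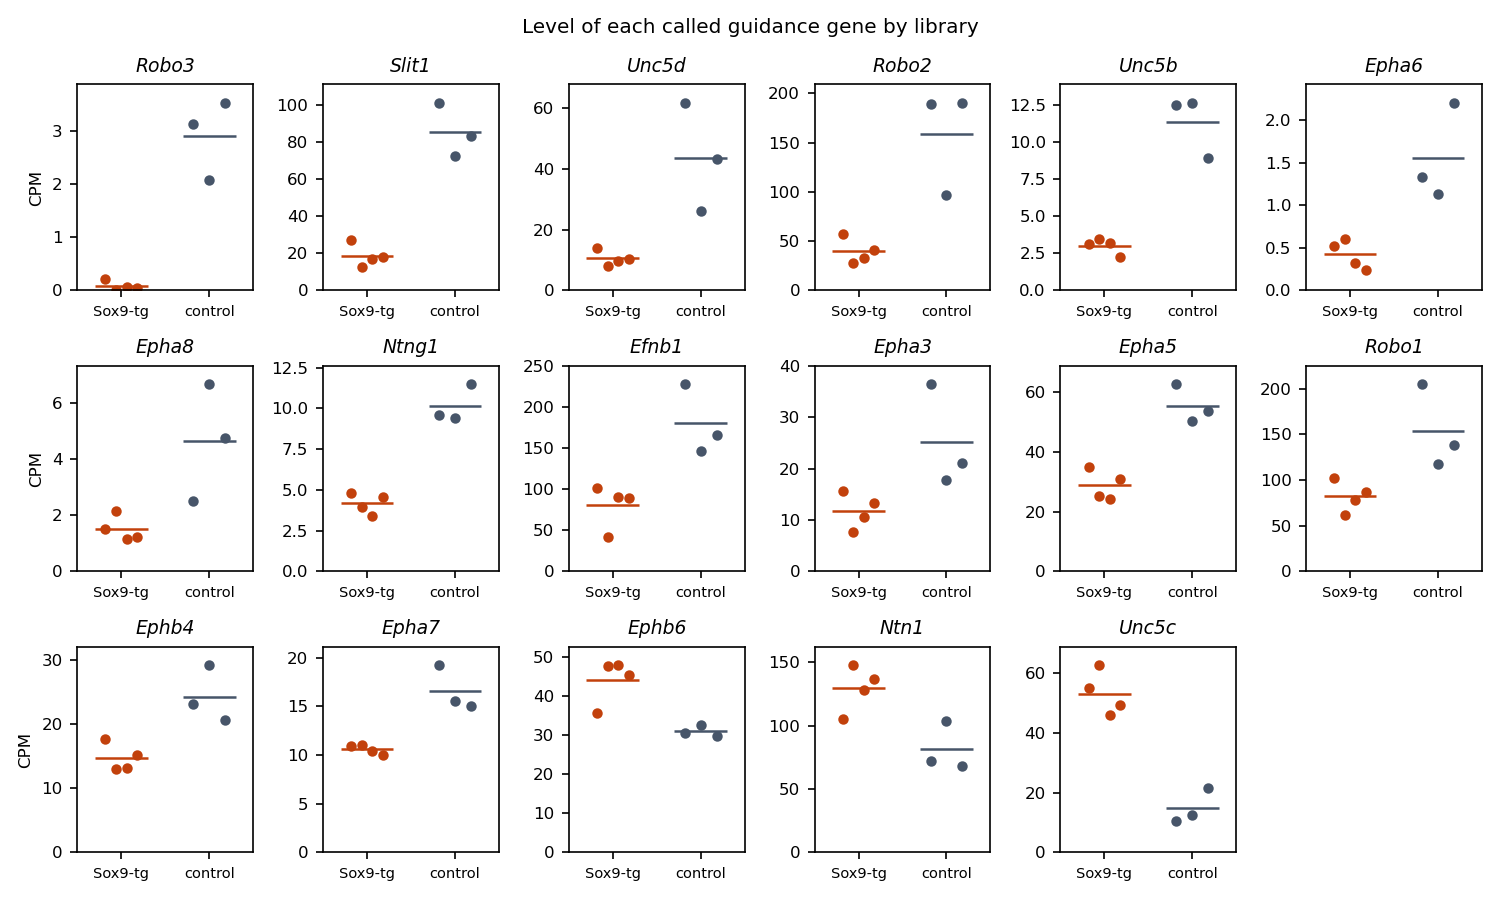
Level in CPM (y axis, from 0) of the 17 called guidance genes in each library, with Sox9-tg (4 points) left of control (3 points) and a line at each mean. The panels run from the largest fall, Robo3, to the largest rise, Unc5c, and in each panel no Sox9-tg point lies within the range of the control points.

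Among the netrins, Ntn1 rose and Ntn4 did not pass. Ntn1 (ENSMUSG00000020902, chromosome 11, 68209364 to 68400823, minus strand), the secreted cue that binds Dcc and the Unc5 receptors, had 105, 148, 128 and 137 CPM in Sox9-tg libraries 1 to 4, against 72.3, 103 and 68.5 CPM in control libraries 1 to 3. The lowest Sox9-tg library, library 1, was just above the highest control library, library 2. The rise was 1.59-fold (log2 fold change 0.67, SE 0.18, edgeR adjusted p = 0.0375). It was lost under upper-quartile factors (adjusted p = 0.0602) and total counts (0.0589), without Sox9-tg library 2 (0.0736), 3 (0.0832) or 4 (0.091) and without control library 1 (0.13) or 3 (0.169). Ntn4, a netrin of basement membranes, had 28.5 to 37.7 CPM in Sox9-tg and 31.6 to 39.0 CPM in control libraries. Ntn5 had 5 counts over all Sox9-tg and 13 over all control libraries and was not tested.

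The netrin receptors Dcc and neogenin did not pass, and their log2 fold changes had opposite signs. Dcc (ENSMUSG00000060534, chromosome 18), which mediates attraction to netrin-1, had 39.9, 21.6, 23.6 and 24.4 CPM in Sox9-tg libraries 1 to 4 and 83.9, 34.6 and 45.8 CPM in control libraries 1 to 3. Only Sox9-tg library 1 overlapped with the control range (log2 fold change -0.997, SE 0.31, edgeR adjusted p = 0.0725). Without Sox9-tg library 1 the adjusted p was 0.0263, without control library 2 it was 0.0311, and with no filter on low counts and with DESeq2 it was 0.0418 and 0.018. Neo1, which encodes neogenin, a receptor for netrins and repulsive guidance molecules, had 205, 317, 238 and 250.3 CPM in Sox9-tg and 175, 180.3 and 173 CPM in control libraries. Its groups did not overlap (log2 fold change 0.52, SE 0.16, edgeR adjusted p = 0.0603), and it passed without Sox9-tg library 1 (0.0187) and with DESeq2 (0.00729). Per kilobase of exon, Neo1 stood at 29.0 ± 5.39 RPKM in Sox9-tg and 20.2 ± 0.414 RPKM in control libraries, well above Dcc at 2.08 ± 0.638 and 4.16 ± 1.96 RPKM in the same groups (SD, n = 4 and 3).

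The Unc5 receptors, which turn the response to netrin-1 into repulsion, went in opposite directions. Unc5c (ENSMUSG00000059921, chromosome 3, 141465216 to 141834924, plus strand) had 55.1, 62.7, 45.9 and 49.3 CPM in Sox9-tg libraries 1 to 4, against 10.7, 12.5 and 21.6 CPM in control libraries 1 to 3. Each Sox9-tg library was more than the highest control library by a wide margin, a 3.55-fold rise (log2 fold change 1.83, SE 0.25, edgeR adjusted p = 0.00209). Unc5d (ENSMUSG00000063626, chromosome 8, 28646717 to 29219636, minus strand), known from migrating cortical neurons, had 14.1, 8.03, 9.66 and 10.4 CPM in Sox9-tg libraries, against 61.7, 26.1 and 43.3 CPM in control libraries. It fell 4.13-fold with no overlap (log2 fold change -2.05, SE 0.29, edgeR adjusted p = 0.00267). Unc5b (ENSMUSG00000020099, chromosome 10, 60762593 to 60831581, minus strand), also a receptor of blood vessels, had 3.15, 3.49, 3.22 and 2.24 CPM in Sox9-tg libraries, against 12.5, 12.6 and 8.96 CPM in control libraries. It fell 3.75-fold, again with no overlap (log2 fold change -1.91, SE 0.23, edgeR adjusted p = 0.00134). Unc5b was highest in library 2 of each group by a small margin, and the summed endothelial markers were highest there too. The part of blood vessel cells in the level of Unc5b was not tested. Unc5a overlapped, at 17.4 to 22.2 CPM in Sox9-tg and 12.8 to 19.8 CPM in control libraries.

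With these opposite changes, the summed Unc5 level per kilobase overlapped between the groups, at 8.61 to 9.46 RPKM in Sox9-tg and 8.57 to 14.0 RPKM in control libraries. Its makeup did not overlap. Unc5c made up 31.6, 34.7, 25.8 and 29.9% in Sox9-tg libraries 1 to 4 and 3.99, 7.61 and 10.6% in control libraries 1 to 3. Unc5d made up 9.21 to 16.8% in Sox9-tg and 33.1 to 47.9% in control libraries, and Unc5a 46.0 to 57.4% in Sox9-tg and 31.8 to 35.8% in control libraries. The merged exons of Unc5c span 19135 bases in the annotation, the longest of the 4, so shorter transcripts in use would place its share higher. These shares were not tested.

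**Figure D3:**
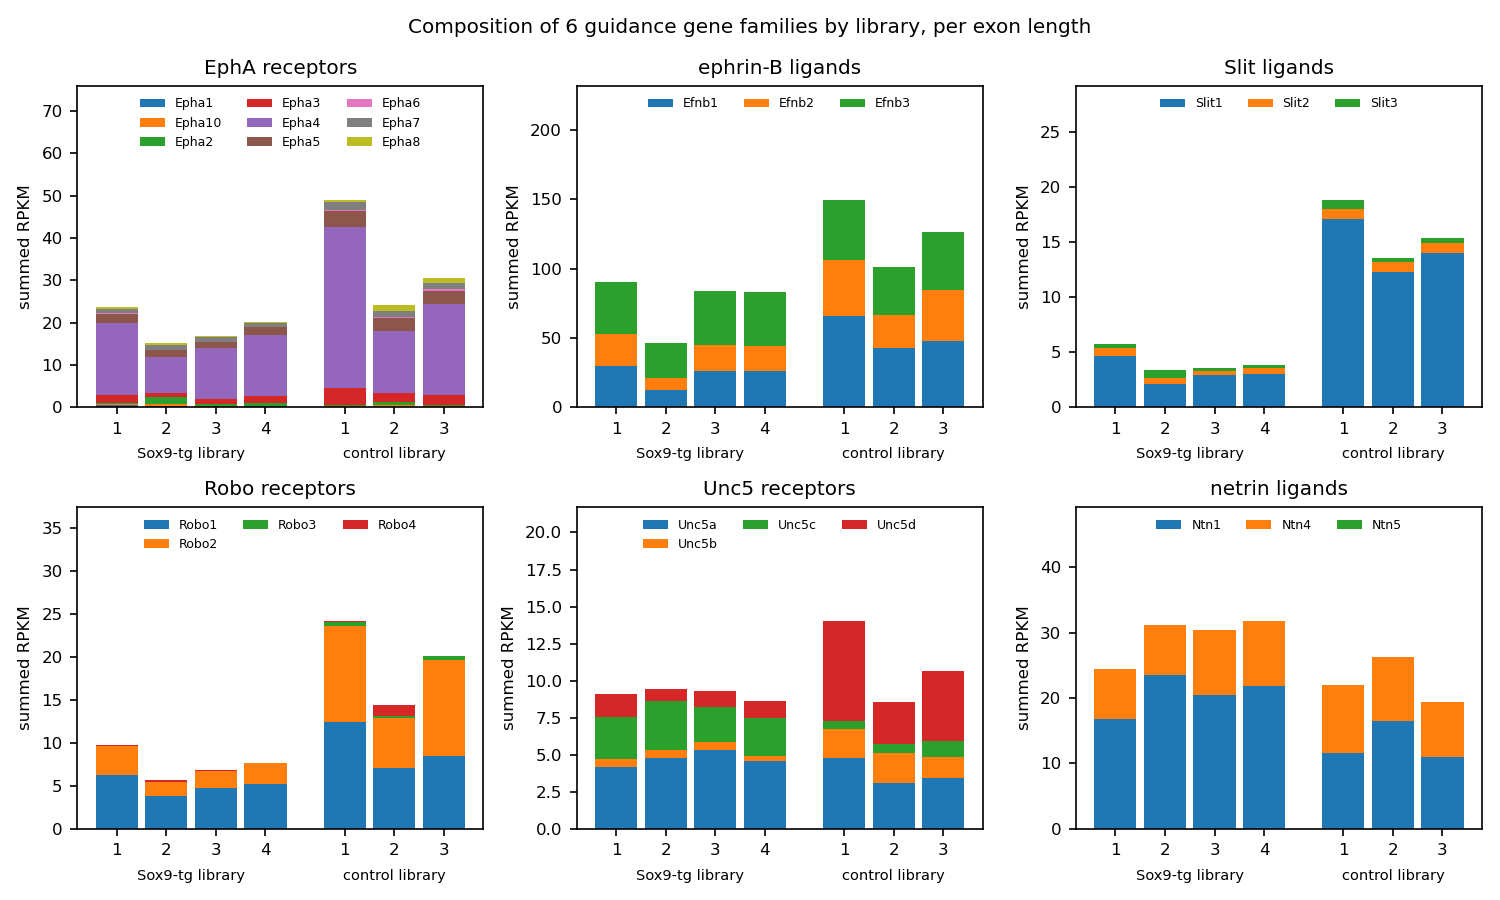
Summed RPKM (y axis, from 0) in each library for 6 guidance gene families, stacked by gene, with Sox9-tg libraries 1 to 4 left of control libraries 1 to 3. Slit and Robo bars are lower in every Sox9-tg library, EphA bars are mostly Epha4 in each library, and Unc5 bars hold more Unc5c and less Unc5d in Sox9-tg libraries.

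Netrin-Gs are lipid-anchored relatives of netrins that bind partners on other cells rather than Dcc or Unc5. Ntng1 (ENSMUSG00000059857, chromosome 3, 109780040 to 110144011, minus strand) had 4.83, 3.94, 3.41 and 4.59 CPM in Sox9-tg libraries 1 to 4, against 9.59, 9.39 and 11.5 CPM in control libraries 1 to 3. It fell 2.42-fold with no overlap (log2 fold change -1.27, SE 0.20, edgeR adjusted p = 0.0043). Ntng2 stood at 22.5 to 24.6 CPM in Sox9-tg and 20.9 to 27.1 CPM in control libraries, with a log2 fold change of 0.01 (SE 0.13). Per kilobase, Ntng2 was the higher of the pair in each library.

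Of the 8 ephrins tested, Efnb1 fell and the others did not pass. Efnb1 (ENSMUSG00000031217, chromosome X, 99136130 to 99148991, plus strand) encodes a membrane-spanning ephrin. It had 101, 42.3, 89.9 and 89.2 CPM in Sox9-tg libraries 1 to 4, against 228, 147 and 165 CPM in control libraries 1 to 3. Sox9-tg library 2 was lowest and no library overlapped (log2 fold change -1.16, SE 0.28, edgeR adjusted p = 0.0268). Efnb1 lost its call without Sox9-tg library 3 (0.0642) or 4 (0.063) and without control library 1 (0.115) or 3 (0.0823). Efnb2, the ephrin of arteries and of many neural progenitors, had 159, 60.4, 127 and 128 CPM in Sox9-tg and 275, 165 and 250.1 CPM in control libraries. The groups were close but did not overlap (log2 fold change -0.95, SE 0.30, edgeR adjusted p = 0.0746), and Efnb2 passed without Sox9-tg library 1 (0.0409), without both libraries numbered 2 (0.00949) and with DESeq2 (0.0172). Efnb3 overlapped, at 79.3 to 125 CPM in Sox9-tg and 110 to 139 CPM in control libraries. As a family, the ephrin-Bs summed to 75.7 ± 20.1 RPKM in Sox9-tg and 126 ± 24.3 RPKM in control libraries (SD, n = 4 and 3). Efnb3 made up 41.6 to 54.2% of that sum in Sox9-tg and 29.1 to 34.1% in control libraries.

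None of the 5 ephrin-A genes passed, and 3 of them, Efna1, Efna3 and Efna4, sit in a cluster on chromosome 3 with gaps of 32.8 and 10.4 kb. Efna3 had 3.41 to 4.39 CPM in Sox9-tg and 5.401 to 8.32 CPM in control libraries, with no overlap (log2 fold change -0.73, edgeR adjusted p = 0.0724; DESeq2 gave 0.0285). Efna4 did not overlap either, at 5.29 to 11.2 CPM in Sox9-tg and 12.4 to 14.8 CPM in control libraries (-0.50, adjusted p = 0.244). Their neighbour Efna1, which is also made by blood vessels, had 3.36 to 6.43 CPM in Sox9-tg and 2.56 to 5.72 CPM in control libraries and was highest in library 2 of each group. Efna2, the main ephrin-A per kilobase in each library, had 38.4 to 58.4 CPM in Sox9-tg and 44.3 to 59.6 CPM in control libraries (log2 fold change -0.02, SE 0.17). Efna5, a repellent of retinal axons, had 18.6 CPM in Sox9-tg library 1 and 9.73 to 10.5 CPM in the other Sox9-tg libraries, against 13.4 to 17.2 CPM in control libraries, and passed without Sox9-tg library 1 (0.0256). Exons of antisense genes cover 14.1% of the exon length of Efna3 and 10.5% of that of Efna4, and whether counting used strand is not stated in the sources at hand.

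EphA receptors, which mainly bind ephrin-As, gave 5 falls and no rise among 9 tested. Epha5 (ENSMUSG00000029245, chromosome 5, 84054761 to 84417382, minus strand) had 35.0, 25.3, 24.2 and 30.9 CPM in Sox9-tg libraries 1 to 4, against 62.7, 50.4 and 53.5 CPM in control libraries 1 to 3. This was a 1.92-fold fall with no overlap (log2 fold change -0.94, SE 0.15, edgeR adjusted p = 0.00495), and it was kept in every alternative. Epha3 (chromosome 16) had 15.6, 7.58, 10.6 and 13.3 CPM in Sox9-tg and 36.4, 17.8 and 21.1 CPM in control libraries (log2 fold change -1.09, SE 0.30, adjusted p = 0.0436). Epha7 (chromosome 4), known from cortical progenitors, had a narrow spread of 11.0, 11.1, 10.4 and 10.1 CPM in Sox9-tg libraries, against 19.2, 15.6 and 15.01 CPM in control libraries (-0.64, SE 0.14, adjusted p = 0.0192). The groups did not overlap for either gene.

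Epha6 and Epha8, both at low levels in either group, also fell. Epha6 (chromosome 16) had 0.525, 0.599, 0.322 and 0.244 CPM in Sox9-tg libraries 1 to 4, against 1.34, 1.14 and 2.20 CPM in control libraries 1 to 3 (log2 fold change -1.87, SE 0.44, edgeR adjusted p = 0.0232). With 10, 12, 5 and 5 counts in Sox9-tg libraries, Epha6 passed the filter on low counts only with the help of the control libraries. Epha8 (chromosome 4) had 1.52, 2.14, 1.16 and 1.22 CPM in Sox9-tg libraries, against 2.499, 6.66 and 4.75 CPM in control libraries (-1.62, SE 0.39, adjusted p = 0.0264). Neither gene overlapped, though for Epha8 the lowest control library, library 1, was close to the highest Sox9-tg library, library 2. The 4 calls other than that of Epha5 were lost when some libraries were left out. Without Sox9-tg library 3 the adjusted p of Epha3, Epha6, Epha7 and Epha8 was 0.121, 0.0686, 0.0675 and 0.0786, and without Sox9-tg library 4 it was 0.0863, 0.0638, 0.0757 and 0.0777. Without control library 3 it was 0.0908, 0.141, 0.0524 and 0.0903. Without control library 1 Epha3, Epha6 and Epha7 had 0.176, 0.0631 and 0.0821, without control library 2 Epha8 had 0.0781, without Sox9-tg library 2 Epha3 had 0.0739, and limma-voom gave Epha3 0.0555. Without both libraries numbered 2 Epha8 had 0.0534.

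Epha4, a receptor that binds ephrins of both classes, was by far the main EphA gene per kilobase, with 57.2 to 72.9% of the summed EphA level in Sox9-tg and 60.5 to 77.4% in control libraries. It had 139, 69.6, 96.4 and 116 CPM in Sox9-tg libraries 1 to 4 and 305, 118 and 172 CPM in control libraries 1 to 3. Sox9-tg library 1 overlapped with control library 2, and the gene did not pass (log2 fold change -0.91, SE 0.32, edgeR adjusted p = 0.106), though it did without control library 2 (0.0389), without both libraries numbered 2 (0.0471) and with DESeq2 (0.0342). The summed EphA level was 15.1 to 23.6 RPKM in Sox9-tg and 24.2 to 49.0 RPKM in control libraries. Epha1, Epha2 and Epha10 were scarce, at 0.451 to 1.58, 1.68 to 8.33 and 1.27 to 1.80 CPM in Sox9-tg and 0.259 to 0.488, 0.697 to 3.41 and 1.104 to 3.12 CPM in control libraries, and none passed. Epha2 was highest in library 2 of each group. Exons of Zyx lie opposite 6.01% of the exon length of Epha1.

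EphB receptors, which mainly bind ephrin-Bs, split, with 1 rise, 1 fall and 3 that did not pass. Ephb6 (ENSMUSG00000029869, chromosome 6, 41605482 to 41620509, plus strand), a family member without kinase activity, had 35.8, 47.7, 48.0 and 45.5 CPM in Sox9-tg libraries 1 to 4, against 30.7, 32.8 and 29.9 CPM in control libraries 1 to 3. Sox9-tg library 1 was nearest to the control libraries (log2 fold change 0.51, SE 0.13, edgeR adjusted p = 0.0328). Ephb4 (ENSMUSG00000029710, chromosome 5, 137350109 to 137378669, plus strand), the main ephrin-B2 receptor of veins, had 17.7, 13.0, 13.1 and 15.2 CPM in Sox9-tg libraries, against 23.1, 29.3 and 20.6 CPM in control libraries (-0.72, SE 0.17, adjusted p = 0.0241). Neither gene overlapped between groups. Ephb4 was highest in control library 2 and lowest in Sox9-tg library 2, and the summed endothelial markers were highest in library 2 of each group. The part of blood vessel cells in the level of Ephb4 was not tested. The call of Ephb6 was lost without any of the libraries except Sox9-tg library 1: adjusted p was 0.0672, 0.0971 and 0.0914 without Sox9-tg libraries 2 to 4 and 0.104, 0.0616 and 0.15 without control libraries 1 to 3. That of Ephb4 was lost without Sox9-tg library 2 (0.0544), 3 (0.0826) or 4 (0.068) and without control library 1 (0.0658) or 2 (0.0737). Without both libraries numbered 2, Ephb6 had 0.0882 and Ephb4 0.104.

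The remaining EphB receptors are the most studied of the class in synapse formation and neural progenitors. Ephb1 had 34.3 to 49.6 CPM in Sox9-tg and 50.3 to 59.7 CPM in control libraries, which did not overlap, but it did not pass (log2 fold change -0.33, edgeR adjusted p = 0.173). Ephb2 had 76.1 to 119 CPM in Sox9-tg and 100.4 to 148 CPM in control libraries. Ephb3, which stood highest of the EphB genes per kilobase on average in both groups, had 76.7 to 117 CPM in Sox9-tg and 74.2 to 108 CPM in control libraries, and it passed only when both libraries numbered 2 were left out (adjusted p = 0.0189). The summed EphB level was 40.1 to 49.1 RPKM in Sox9-tg and 41.3 to 47.7 RPKM in control libraries. Set beside the EphA sum, it was the larger in each Sox9-tg library and in control libraries 2 and 3, and the smaller in control library 1.

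Promoter windows were read to show the sequence next to the start of genes that moved. RefSeq windows (GRCm38.p6) of 250 bases before the start were found for 35 of the 40 genes by symbol, and each was searched on both strands for the SOX core letters ACAAT and ACAAAG. These genes had 40 windows, since Efna1, Efna3, Epha7 and Robo2 had more than 1 each. A gene was counted if any of its windows held the letters, and for Efna3 only 1 window did. Neither occurred in any of the 14 called genes with a window, and at least 1 of them occurred in 5 of the 19 tested genes with a window that were not called, Efna2, Efna3, Efna4, Ephb1 and Ntn4, and in Robo4. Among all 32851 windows of the same length, counted per window and not per gene, 27.7% held ACAAT, 16.5% held ACAAAG and 38.8% held at least 1 of them. The windows of Robo2 (chr16:74411826-74412075, minus strand), Unc5b (chr10:60831582-60831831, minus strand) and Epha5 (chr5:84417383-84417632, minus strand), which fell in every alternative, are given beside that of Efna2 (chr10:80179232-80179481, plus strand), whose level hardly differed. The Robo2 window given is the one next to the start in the annotation used here, and its other windows are not shown. Capitals mark the SOX core letters, which occur 2 times in Efna2, as ACAAAG.
Robo2: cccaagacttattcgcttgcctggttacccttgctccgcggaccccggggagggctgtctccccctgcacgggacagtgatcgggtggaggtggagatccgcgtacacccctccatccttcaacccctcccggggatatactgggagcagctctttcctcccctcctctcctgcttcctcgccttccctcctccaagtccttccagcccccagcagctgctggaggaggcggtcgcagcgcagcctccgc
Unc5b: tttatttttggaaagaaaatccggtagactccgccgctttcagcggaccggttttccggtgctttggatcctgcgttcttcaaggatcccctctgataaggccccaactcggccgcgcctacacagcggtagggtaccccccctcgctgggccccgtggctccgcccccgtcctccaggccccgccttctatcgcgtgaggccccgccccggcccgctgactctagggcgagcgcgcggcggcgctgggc
Epha5: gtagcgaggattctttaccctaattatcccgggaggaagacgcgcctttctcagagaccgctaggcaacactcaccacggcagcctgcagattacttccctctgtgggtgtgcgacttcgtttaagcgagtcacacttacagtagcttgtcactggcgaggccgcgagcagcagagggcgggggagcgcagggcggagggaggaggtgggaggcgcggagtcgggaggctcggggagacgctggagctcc
Efna2: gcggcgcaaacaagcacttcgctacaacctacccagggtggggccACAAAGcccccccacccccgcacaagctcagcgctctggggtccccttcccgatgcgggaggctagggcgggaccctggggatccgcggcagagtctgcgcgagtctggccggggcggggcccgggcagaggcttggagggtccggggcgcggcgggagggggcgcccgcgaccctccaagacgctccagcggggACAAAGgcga
A match is letters in a window and not a binding site, and sites farther from the start were not searched.

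Among partners and effectors of these pathways, more genes were called higher than lower in each of 3 lists. In the list of 20 Eph and ephrin partners, 4 rose and 2 fell, or 20% and 10%, beside 7.69% and 5.86% of all genes tested. The log2 fold change was below 0 for 12 of the 20 and above 0 for 8, with a median of -0.15. Anks1b and Anks1, members of a scaffold family that binds Eph receptors, had 219 ± 14.9 and 170 ± 15.6 CPM in Sox9-tg, against 82.5 ± 8.59 and 94.4 ± 14.3 CPM in control libraries (SD, n = 4 and 3; edgeR adjusted p = 0.000311 and 0.00478). Chn2, a Rac regulator of the chimaerin family, rose to 159 ± 88.4 CPM in Sox9-tg, against 23.5 ± 3.53 CPM in control libraries (log2 fold change 2.76, SE 0.44, adjusted p = 0.00463). Grip1, which binds the tail of ephrin-Bs, fell to 27.0 ± 4.98 CPM in Sox9-tg, against 60.0 ± 14.2 CPM in control libraries (-1.15, adjusted p = 0.00616). Rgs3, which links ephrin-Bs to G protein signalling, fell to 43.4 ± 6.22 CPM in Sox9-tg, against 65.2 ± 9.01 CPM in control libraries (adjusted p = 0.0314), and lost its call without Sox9-tg library 2 (0.0566), 3 (0.0589) or 4 (0.0774) and without control library 1 (0.159) or 3 (0.117).

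Of 18 Slit and Robo partners, 5 rose and 2 fell (median log2 fold change 0.20), while the Robo receptors fell. These were 27.8% and 11.1%, beside 7.69% and 5.86% of all genes tested. The Robo-binding GTPase regulator Srgap1 rose to 73.1 ± 10.2 CPM in Sox9-tg, against 43.9 ± 1.63 CPM in control libraries (log2 fold change 0.73, SE 0.13, edgeR adjusted p = 0.00741). Its relative Srgap2 fell to 133 ± 41.4 CPM in Sox9-tg, against 235 ± 37.3 CPM in control libraries (adjusted p = 0.0449), a call lost with RLE factors (0.051), without both libraries numbered 2 (0.0589), without Sox9-tg library 2 (0.0751), 3 (0.127) or 4 (0.132) and without control library 1 (0.161) or 3 (0.144). Arhgap39, whose Drosophila counterpart acts below Robo, and Ndfip1, an adaptor of ubiquitin ligases, rose by log2 fold changes of 0.47 and 0.67. The call of Arhgap39 was lost without control library 1 (0.0592) or 3 (0.0795), and that of Ndfip1 without control library 3 (0.0729) or both libraries numbered 2 (0.0602). Flrt2, a surface ligand of Unc5d, fell to 41.4 ± 11.9 CPM in Sox9-tg, against 87.6 ± 28.4 CPM in control libraries (adjusted p = 0.0306). It lost its call without Sox9-tg library 3 (0.0913) or 4 (0.0767) and without control library 1 (0.127) or 3 (0.109).

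Of 19 tested partners of the netrin, Unc5 and neogenin receptors, 6 rose and 3 fell, with a median of 0.30. These were 31.6% and 15.8%, beside 7.69% and 5.86% of all genes tested. The neogenin ligand gene Rgmb rose to 210.2 ± 41.4 CPM in Sox9-tg, against 47.3 ± 9.11 CPM in control libraries (log2 fold change 2.15, SE 0.21, edgeR adjusted p = 0.000466), whereas its relative Rgma fell to 165 ± 27.0 CPM in Sox9-tg, against 311 ± 84.2 CPM in control libraries (-0.91, SE 0.20, adjusted p = 0.0196). Dscam, a cell adhesion molecule that also binds netrin-1, rose to 181 ± 32.2 CPM in Sox9-tg, against 57.5 ± 5.97 CPM in control libraries (1.65, SE 0.16, adjusted p = 0.000542). Lrrc4, the partner of netrin-G2, rose to 50.2 ± 4.87 CPM in Sox9-tg, against 23.6 ± 5.63 CPM in control libraries (1.08, SE 0.17, adjusted p = 0.00436). Trim9, a ubiquitin ligase that binds Dcc, fell to 156 ± 21.3 CPM in Sox9-tg, against 320.3 ± 81.7 CPM in control libraries (-1.04, SE 0.19, adjusted p = 0.00841). Draxin, a secreted ligand of Dcc and netrin-1, fell to 130.3 ± 28.6 CPM in Sox9-tg, against 206 ± 27.5 CPM in control libraries (adjusted p = 0.0498). The call of Draxin was lost with RLE factors (0.0573), with no filter (0.0508) and without any library except Sox9-tg library 1 (0.0554 to 0.215), and that of Rgma without control library 2 (0.0659) or 3 (0.0875) or both libraries numbered 2 (0.0867). Over the 3 lists, 26.3% of 57 tested genes rose and 12.3% fell, beside the 7.69% and 5.86% of all genes. The lists were chosen with earlier results of these data known, so these shares only describe them and were not tested.

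**Figure D4:**
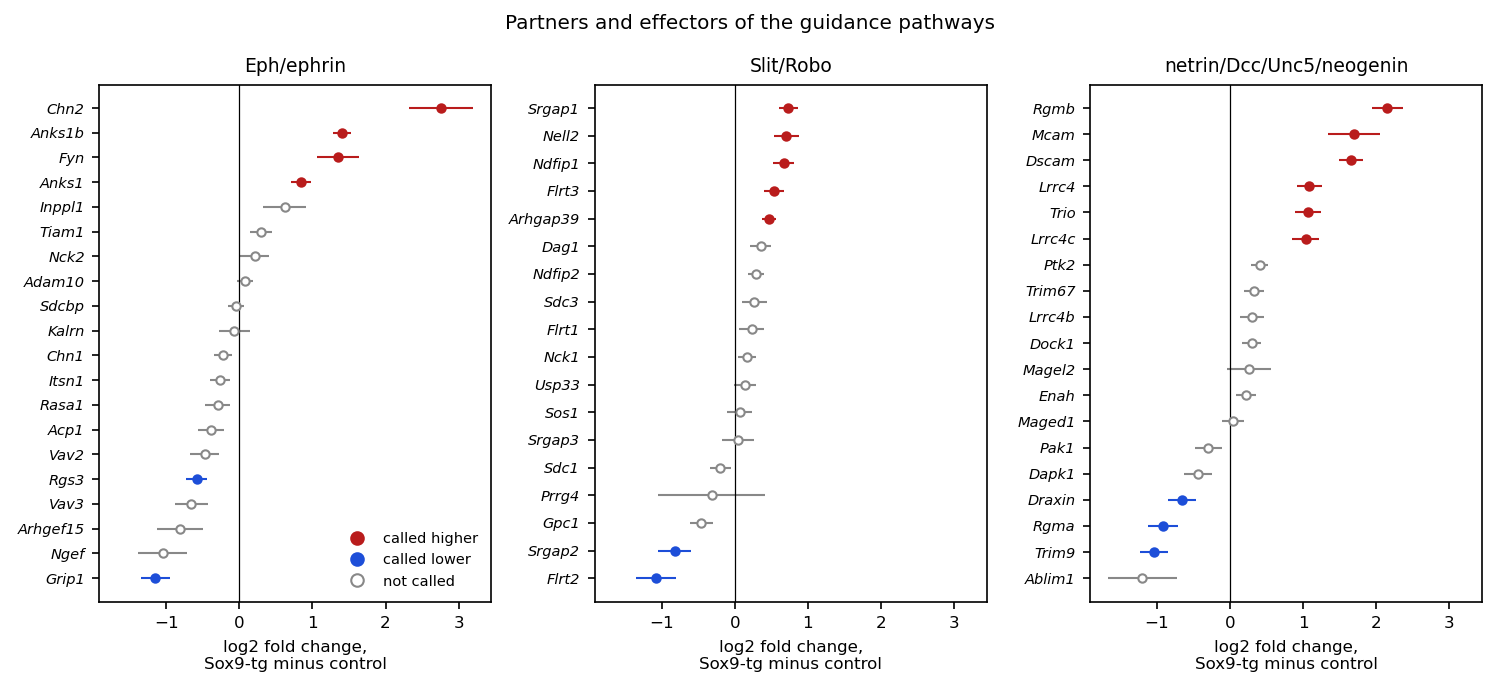
Log2 fold change (x axis, Sox9-tg minus control, 4 and 3 libraries) of the tested partners and effectors in 3 lists, with bars of 1 SE and filled points where the edgeR adjusted p is under 0.05. The Eph list holds 4 rises and 2 falls, the Slit and Robo list 5 and 2, and the netrin list 6 and 3, with Chn2 and Rgmb farthest to the right in their lists.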

How the data were processed

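The authors deposited whole-number read counts per gene for 7 libraries, 4 Sox9-tg and 3 control, grouped by sample title. The build named in the submitters' processing notes is GRCm38, and the tools are STAR 2.5.2b, Trimmomatic 0.36, Subread 1.5.2 with featureCounts, DESeq and DESeq2. Their settings, strand use and the handling of multi-mapping reads are not stated in the sources used here. Reads of overlapping or closely similar genes can therefore be misassigned.

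From the counts, filterByExpr (minimum count 10, minimum total 15) kept 16616 genes. TMM factors were 0.965 to 1.05. Group was the only term in edgeR's two-sided quasi-likelihood test (version 4.0.16 under R 4.3.3). P-values were adjusted by Benjamini and Hochberg over all tested genes, and 0.05 was the threshold. SE is the log2 fold change divided by the square root of F. CPM use scaled totals, and RPKM divide CPM by merged exon length in GENCODE M21 (GRCm38), which also gave coordinates. The steps were tested on simulated counts with the same spread for every gene. Spread differs between genes in real data, so that test does not measure how reliable the calls are.

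All guidance genes were named, and of each partner list up to 3 genes per direction by smallest p. Members and lists were chosen with earlier results of these data known. Alternatives were RLE, upper-quartile and no factors, DESeq2 1.42.0, limma-voom (limma 3.58.1), no filter, a filter of 1 CPM in 3 libraries, a replicate block and each library left out. Leaving out both libraries numbered 2 was added after seeing the data. Intervals cover counting error only.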

Additional observations from a re-analysis of the deposited data

Results flagged for a closer look

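A gap test of the 4 Sox9-tg libraries was run for the 55 genes named, and chance alone would give about 1 in 20 groups a value above Dixon's 95% limit. It marked 5 guidance genes, none of which was called between the groups. Sox9-tg library 2 was low in 3 of them. Ephb3 had 76.7 CPM there and 111 to 117 CPM in the other Sox9-tg libraries (gap over range 0.857), Efnb3 had 79.3 CPM against 119 to 125 CPM (0.881), and Efna4 had 5.29 CPM against 10.2 to 11.2 CPM (0.835). Sox9-tg library 1 was high in the other two. Efna5 had 18.6 CPM there and 9.73 to 10.5 CPM in the other Sox9-tg libraries (0.909), and Dcc had 39.9 CPM against 21.6 to 24.4 CPM (0.844). In the same Sox9-tg libraries the summed neuronal markers were 916 CPM in library 2 and 2424 CPM in library 1, against 1479 and 1501 CPM in the others. Summed cell-cycle genes were 602 CPM in library 2, 1068 CPM in library 1 and 827 and 928 CPM in the others, and summed oligodendrocyte markers were 5264, 841, 2710 and 3108 CPM in libraries 2, 1, 4 and 3. The part of these levels in the marked values was not tested.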

How the results depend on the processing

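Slit1, Robo2, Robo3, Unc5b, Unc5d, Epha5 and Ntng1 fell and Unc5c rose in all 16 alternatives. With 1 library left out, the genes called numbered 965 to 3169 (higher 575 to 1785, lower 390 to 1384). Guidance genes called higher then numbered 1 to 4 and lower 7 to 18, ligands 0 to 1 and 2 to 6, receptors 1 to 3 and 5 to 12, and partner genes 11 to 25 (higher 9 to 17, lower 2 to 8). The medians ranged from -0.57 to -0.28 for ligands and from -0.89 to -0.55 for receptors. Under upper-quartile factors and total counts no ligand (0) was called higher, Ntn1 being lost, and all genes split into 1113 higher and 1112 lower, or 1117 and 1087. DESeq2 called 6 ligands lower. Ntng2 changed sign under upper-quartile factors (-0.042) and total counts (-0.045), and without Sox9-tg library 1 (-0.017), control library 1 (-0.051) or control library 3 (-0.029), with a range of -0.051 to 0.133 over left-out libraries. Efna2 did so without Sox9-tg library 2 (0.096), control library 1 (0.136) or both libraries numbered 2 (0.047; range over left-out libraries -0.104 to 0.136). Epha10 did so without control library 2 (0.224) or both (0.167; range -0.563 to 0.224). None of these 3 was called in any setting.

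Libraries that share a replicate number deviated alike for numbers 1 and 2 but not for number 3. Over tested genes, deviations from the group means correlated at 0.317 for both libraries numbered 1 and at 0.613 for both numbered 2. Sox9-tg library 2 and control library 1 correlated at -0.512, and Sox9-tg library 1 and control library 2 at -0.364. Deviations from a group mean cancel out over the libraries of that group. Positive values for some pairs therefore bring negative ones for others, and the negative values are no separate sign of matching numbers. For number 3 the correlation was 0.07, and both libraries numbered 3 correlated more with another number. What the numbers stand for is not given in the labels. No control library is numbered 4, so a replicate block leaves Sox9-tg library 4 out of the group difference. With a replicate block, Epha6 lost its call (adjusted p = 0.0621), and Epha4 (0.00154), Dcc (0.00152), Efnb2 (0.00157), Slit2 (0.0235), Neo1 (0.0479) and Epha2 (0.0213) passed. In that fit 1509 genes were called lower, with 5 guidance genes higher, 5 ligands lower, 4 receptors higher and 12 partner genes lower. The cause of these differences was not tested. Depth limits Robo3 and Ntn5 in Sox9-tg libraries, which lay near or under 3 counts.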
